A study of Mus musculus with 46 samples.

Results

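The interval from day 7 (D7) to day 10 (D10) was examined in mouse embryonic fibroblasts (MEF) that were being reprogrammed towards induced pluripotent stem cells (iPSC) with retroviral Oct4 and the fusion NanogBiD. Its members are the 2 D7 libraries, the 2 D10 libraries and the single day 8 (D8) library of this combination, 5 of 46 samples in the series, chosen by their labels. NanogBiD is full-length Nanog that carries the N-terminal BRG1 interacting domain of SS18 at its own N terminus, and the labels call it NanogN70. SS18 is a BAF subunit, and this part of it contacts the ATPase BRG1 and so brings this chromatin remodeller to the fusion. The gene table held 34 libraries, of which 31 belonged to the time course, 2 to untreated MEF and 1 to mouse embryonic stem cells (mES). The mES library is labelled OG2-mES, and the study's methods derive the MEF for reprogramming from OG2 mice as well. OG2 mice carry an Oct4-GFP reporter. Every transduced group shared the viral Oct4 on pMXs vectors. The comparison groups were D7 and D10 with native Nanog (NanogWT) and the same Oct4, 2 libraries each. Per the study's methods, cells were kept in the induction medium iCD3 from D0 and moved after about 7 days to N2B27 with 2iL, that is LIF and the inhibitors CHIR99021 and PD0325901. Time and medium can therefore not be told apart between D7 and D10, and whether the D7 cells were collected before the switch is not stated. No label says that replicates came from separate cultures, so p-values measure the spread between these samples, which may be technical.

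In 2iL medium, PD0325901 blocks the MEK kinases that activate ERK, CHIR99021 blocks GSK3 and so stabilises beta-catenin, and LIF signals through its receptor, JAK kinases and Stat3. The naive pluripotent state held by this medium rests on a network of transcription factors that includes Oct4 (gene symbol Pou5f1), Sox2, Nanog, Esrrb, Klf2 and Tfcp2l1. Fibroblasts that enter it lose their collagen matrix, contractile filaments and mesenchymal surface proteins and gain epithelial junctions. Serum-free N2B27 without these additions is a common base medium for neural differentiation of pluripotent cells.

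Values are FPKM, fragments scaled by gene length and by the fragments mapped in the library, and differences are on the log2(FPKM + 1) scale, where changes of low genes come out too small. Depth was read from the smallest steps between low values, which gives only ratios: the 5 NanogBiD libraries of D7 to D10 had a relative depth of 0.914 to 1.10, and the NanogWT libraries 0.979 and 1.06 at D7 and 1.85 and 3.07 at D10. Across the genes tested, the D7 replicates correlated at r = 0.976 and the D10 replicates at r = 0.981, while D7 and D10 libraries correlated at 0.890 to 0.902. The correlation with the mES library was 0.769 and 0.779 at D7, 0.856 at D8 and 0.863 and 0.895 at D10. Genes are not independent replicates, and these values are descriptions. Of the 125 genes named by rule, 41 overlap another RefSeq gene, and since strand is not stated their reads cannot be told apart from those of the neighbour.

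With NanogBiD, 2651 of 16842 genes tested (15.7%) differed at D10 from D7 by at least 2-fold at an adjusted p under 0.05 (limma, Benjamini-Hochberg). Of these, 1341 rose (7.96%) and 1310 fell (7.78%), and the median log2 difference over all genes tested was 0.05. Without the fold limit, 6610 genes passed. The libraries of both days did not overlap in 2649 of the 2651 called genes, as in 67.8% of all genes tested. The interval before it, D5 to D7, held 435 called genes (2.58%) and the interval after it, D10 to D12, held 232 (1.38%). These intervals share the D7 and D10 libraries and differ in length.

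The genes that rose did not all have a high level in mES. In the mES library, 768 of the 1341 (57.3%) stood at least 2-fold above the D7 mean, against 16.7% of all genes tested. A further 314 (23.4%) were listed under 1 FPKM in mES, against 25.9% of all genes tested, and the D10 mean of 221 (16.5%) was at least 4-fold above mES, against 4.36%. Of the genes that fell, 1140 of 1310 (87.0%) were at least 2-fold below the D7 mean in mES, against 20.3% of all genes tested. The MEF mean was at least 2-fold below the D7 mean in 785 of them (59.9%, against 15.2% of all genes tested) and at least 2-fold above it in 97 (7.40%, as in 7.40% of all genes tested). By D10, 802 of the fallen genes (61.2%) were within 2-fold of the mES value, against 76.4% of all genes tested. The D7 and D10 libraries that selected the risen and fallen genes also gave the means used here. A fallen gene is high at D7 and a risen gene low at D7 by selection, so these shares are partly set in advance and are descriptions only.

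**Figure D1:**
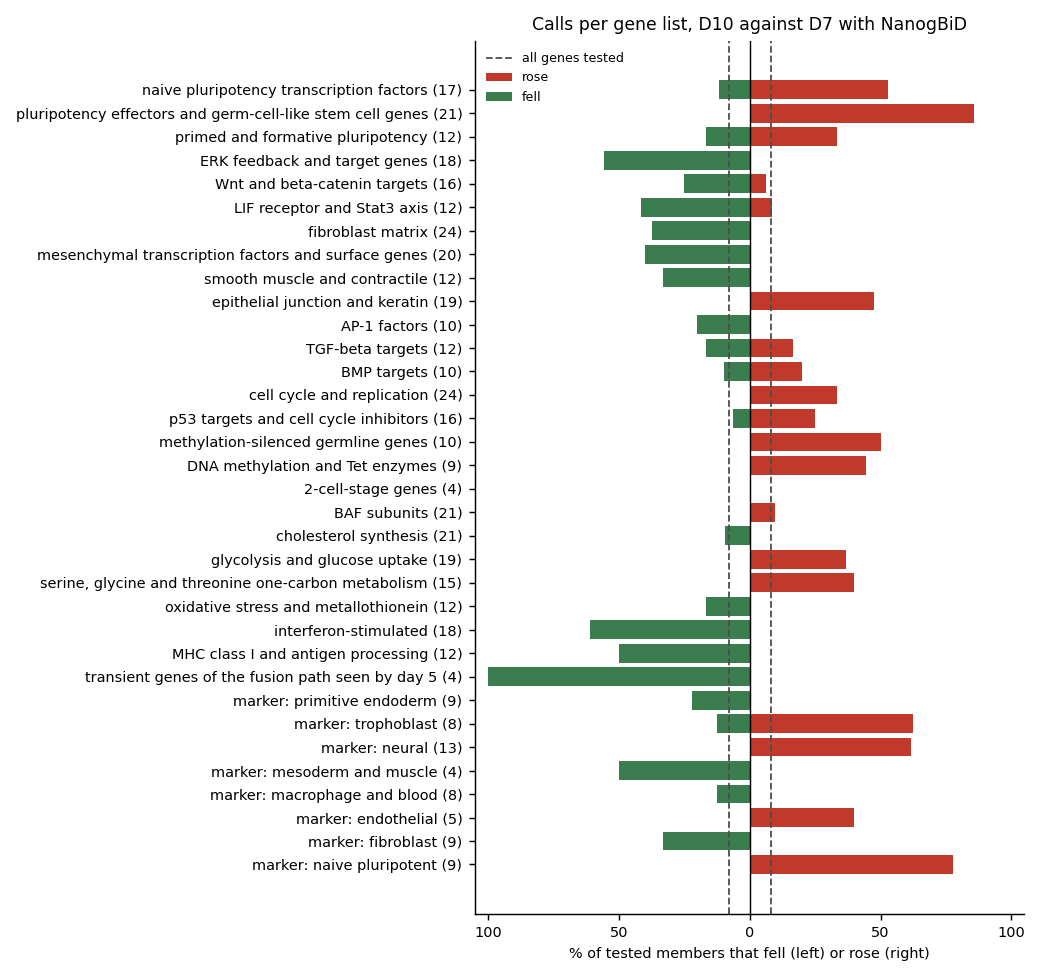
Share of tested members of each gene list that rose (right) or fell (left) from D7 to D10 with NanogBiD, in percent of the members tested, with dashed lines at the share over all genes tested. Pluripotency effectors reached 18 of 21 risen, interferon-stimulated genes 11 of 18 fallen, and fibroblast matrix genes 9 of 24 fallen with none risen.

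Transcription factors of the naive network rose in part. Of 17 listed, 9 rose and 2 fell, with a median log2 difference of 1.14. The HMG-box factor Sox2 (GRCm38, chromosome 3, 34649995 to 34652461) was at 15.3 and 12.5 FPKM at D7, 73.5 at D8 and 200.2 and 177 at D10 (log2 difference 3.68, SE 0.45, adjusted p = 2.58e-06), next to 248 in mES. The Krüppel-like factor Klf2 was at 7.69 and 4.98 FPKM at D7, 99.5 at D8 and 134 and 70.6 at D10 (log2 difference 3.77, SE 0.42, adjusted p = 7.82e-07). Most of its D10 level was present at D8, 1 day after D7. The orphan nuclear receptor Esrrb was at 6.09 and 4.50 FPKM at D7, 18.6 at D8 and 44.6 and 29.7 at D10 (log2 difference 2.58, SE 0.28, adjusted p = 7.03e-07), still below the 163 FPKM of mES. Zfp42, the gene of the stem cell protein REX1, was at 1.45 and 1.59 FPKM at D7, 12.8 at D8 and 30.2 and 19.3 at D10 (log2 difference 3.32, SE 0.29, adjusted p = 4.27e-08). Nr0b1, Nr5a2, Prdm14, Zfp296 and Tcl1 also rose. In contrast, Tfcp2l1 was at 30.5 and 27.1 FPKM at D7, 39.9 at D8 and 31.2 and 27.3 at D10, and its D7 and D10 libraries overlapped, far below the 107 of mES (log2 difference 0.02, SE 0.19, adjusted p = 0.942). With NanogWT, 6 of the 17 factors rose and 1 fell, against 5.69% and 4.59% of all genes tested. The D7 to D10 difference was called higher with NanogBiD in 5 of the 17 and lower in 0.

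The only naive factors that fell with NanogBiD were Nanog and Pou5f1, the 2 genes that were also delivered by virus. Nanog was at 712 and 723 FPKM at D7, 327 at D8 and 200.03 and 128 at D10 (log2 difference -2.16, SE 0.20, adjusted p = 1.26e-07), and Pou5f1 was at 2683 and 1804 FPKM at D7, 1001 at D8 and 667 and 434 at D10 (log2 difference -2.03, SE 0.36, adjusted p = 0.000172). With NanogWT, Nanog also fell, from 1215 and 1528 FPKM at D7 to 387 and 331 at D10. Only 1 naive factor was called as fallen with NanogWT, so Nanog and Pou5f1 were not both called there. Reads of the viral copies and of the endogenous genes enter the same gene value, so their shares cannot be told apart. The Ss18 gene, whose N terminus the fusion carries, was at 74.2 and 74.1 FPKM at D7, 54.5 at D8 and 51.9 and 45.7 at D10 and did not reach 2-fold (log2 difference -0.60, SE 0.17, adjusted p = 0.00805).

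Most effector genes of the pluripotent state rose. Of 21 effectors and stem cell genes shared with germ cells, 18 rose and none fell, with a median log2 difference of 2.13. Dppa5a, which codes for an RNA-binding protein of stem cells, had the largest rise of all genes named here (GRCm38, chromosome 9, 78367052 to 78368199). It was at 4.11 and 7.87 FPKM at D7, 128 at D8 and 706 and 361 at D10 (log2 difference 6.23, SE 0.41, adjusted p = 1.69e-09), and mES had 2396. The maternal factor Dppa3 was at 3.84 and 5.34 FPKM at D7, 51.4 at D8 and 88.3 and 56.4 at D10 (log2 difference 3.69, SE 0.49, adjusted p = 7.16e-06), above the 22.9 FPKM of mES in all D8 and D10 libraries. Fgf4, the growth factor by which stem cells activate ERK, was at 0.777 and 1.28 FPKM at D7, 18.3 at D8 and 47.01 and 22.7 at D10 (log2 difference 4.07, SE 0.30, adjusted p = 4.88e-09). The Nodal co-receptor Tdgf1 was at 49.1 and 39.4 FPKM at D7, 79.2 at D8 and 70.9 and 53.6 at D10 and was not called (log2 difference 0.48, SE 0.34, adjusted p = 0.279). The 9 genes listed as naive markers summed to 106 to 118 FPKM at D7, 439 at D8 and 765 to 1259 at D10, and to 3718 in mES. Dppa5a alone made up 706 and 361 FPKM of these sums at D10 and 2396 in mES. Of these 9 markers, 7 rose with NanogBiD and 8 with NanogWT, and the D7 to D10 difference was called higher with NanogBiD in 2. Among the 21 effectors, 11 rose and 1 fell with NanogWT, and the difference was higher with NanogBiD in 10 and lower in 1. Over all genes tested, 5.69% rose and 4.59% fell with NanogWT, and the difference was higher with NanogBiD in 6.72% and lower in 8.39%. In bulk RNA, more cells with a transcript and more transcript per cell cannot be told apart, here and in every result below.

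The promoter of Zfp42 is shown because it holds an octamer, the motif bound by Oct4 (ATGCAAAT or its complement ATTTGCAT, both strands searched). The window runs from 250 bases before to 50 bases after the start site in RefSeq (GRCm38.p6, chr8:43306960-43307259, minus strand), with the match in capitals.
Zfp42: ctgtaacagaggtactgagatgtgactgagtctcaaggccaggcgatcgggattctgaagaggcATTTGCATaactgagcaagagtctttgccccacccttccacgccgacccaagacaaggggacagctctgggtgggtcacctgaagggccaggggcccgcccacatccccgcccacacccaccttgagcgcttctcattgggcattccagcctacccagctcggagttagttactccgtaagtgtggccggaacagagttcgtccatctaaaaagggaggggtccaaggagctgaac
The motif occurs in 570 of 32851 promoter windows of this length (1.74%), in 2.34% of the windows of risen genes, in 3.15% of those of fallen genes and in 1.60% of those of all genes tested. It was found in 2 of the 13 naive factors with a window, Zfp42 and Zfp296, and in 0 of 11 pluripotency effectors. A match is a stretch of letters and not a site shown to be bound.

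Primed and formative genes split. Of 12 tested, 4 rose and 2 fell, with a median log2 difference of 0.86. Zic2, a zinc finger factor of the formative state and of the neural plate, was at 5.67 and 4.62 FPKM at D7, 12.3 at D8 and 37.8 and 34.99 at D10 (log2 difference 2.61, SE 0.18, adjusted p = 3.2e-09). Sox3, which is expressed in epiblast and neural progenitors, was at 5.81 and 5.51 FPKM at D7, 12.4 at D8 and 33.8 and 37.3 at D10 (log2 difference 2.45, SE 0.51, adjusted p = 0.000802). The homeobox gene Otx2, a factor of the formative state, was at 0.371 and 0.132 FPKM at D7, 0.366 at D8 and 1.55 and 0.488 at D10 and was not called (log2 difference 0.64, SE 0.24, adjusted p = 0.0399), but it passed without D10 replicate 2 (1.03) and with a pseudocount of 0.1 (1.57, adjusted p = 0.0323). Fgf5, the textbook primed marker, was listed at 0 to 0.108 FPKM in the 5 libraries and was not tested. The activin antagonist Fst fell, from 21.1 and 18.98 FPKM at D7 to 2.64 and 3.67 at D10 (log2 difference -2.35, SE 0.15, adjusted p = 1.22e-09).

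Several genes known from neural progenitors or neurons had large rises. Among the 10 largest rises of protein-coding genes that averaged 10 FPKM or more in the higher group, these were Scrt2, Nhlh2, Hes5, Ina, Msx3, Elavl3 and Fabp7, a grouping made after their values were seen and not tested. Dppa5a and the autophagy receptor Calcoco2 were also among the 10. Scrt2, a zinc finger repressor of newborn neurons (GRCm38, chromosome 2, 152081529 to 152095802), was at 0.281 and 0.109 FPKM at D7, 4.46 at D8 and 31.4 and 42.1 at D10 (log2 difference 4.97, SE 0.30, adjusted p = 5.67e-10). The helix-loop-helix factor Nhlh2 was at 0.199 and 0.381 FPKM at D7, 6.86 at D8 and 27.1 and 44.5 at D10 (log2 difference 4.80, SE 0.35, adjusted p = 5.4e-09). Hes5, the Notch target that keeps neural progenitors undifferentiated, was at 0.617 and 1.69 FPKM at D7, 14.4 at D8 and 44.3 and 70.1 at D10 (log2 difference 4.77, SE 0.45, adjusted p = 1.02e-07). All D8 values of these 3 genes lay between D7 and D10, and mES had 0 to 0.0689 FPKM. The neuronal filament gene Ina was at 1.51 and 0.894 FPKM at D7, 10.9 at D8 and 31.2 and 55.3 at D10 (log2 difference 4.29, SE 0.33, adjusted p = 1.06e-08), and the radial glia gene Fabp7 was at 3.39 and 5.17 FPKM at D7, 21.9 at D8 and 76.04 and 111 at D10 (log2 difference 4.16, SE 0.54, adjusted p = 5.44e-06). The neuronal RNA-binding protein gene Elavl3 and the dorsal neural tube factor Msx3 rose likewise, to 22.97 and 32.6 FPKM for Elavl3 and 19.9 and 30.98 for Msx3 at D10.

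The list of neural markers rose in part. Of 13 tested, 8 rose and none fell, with a median log2 difference of 1.25, and the list summed to 190 to 268 FPKM at D7, 273 at D8 and 387 to 621 at D10, against 69.7 in mES and 55.8 to 90.2 in MEF. Pax6, the eye and forebrain factor, was at 2.38 and 1.64 FPKM at D7, 3.17 at D8 and 5.99 and 10.2 at D10 (log2 difference 1.57, SE 0.26, adjusted p = 7.85e-05). Sox1, the early neuroectoderm factor, was at 17.8 and 12.97 FPKM at D7, 37.2 at D8 and 30.3 and 39.3 at D10 (log2 difference 1.13, SE 0.35, adjusted p = 0.0155). Dcx, which codes for a microtubule protein of migrating neurons, was at 0.170 and 0.280 FPKM at D7, 3.01 at D8 and 11.9 and 23.8 at D10 (log2 difference 3.87, SE 0.28, adjusted p = 4.62e-09). Nes, the intermediate filament of neural progenitors and many other dividing cells, was at 77.9 and 42.97 FPKM at D7, 40.8 at D8 and 62.1 and 103 at D10 and was not called (log2 difference 0.46, SE 0.33, adjusted p = 0.286). Olig3, Neurog2, Nefl and Gfap were also among the risen members.

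**Figure D2:**
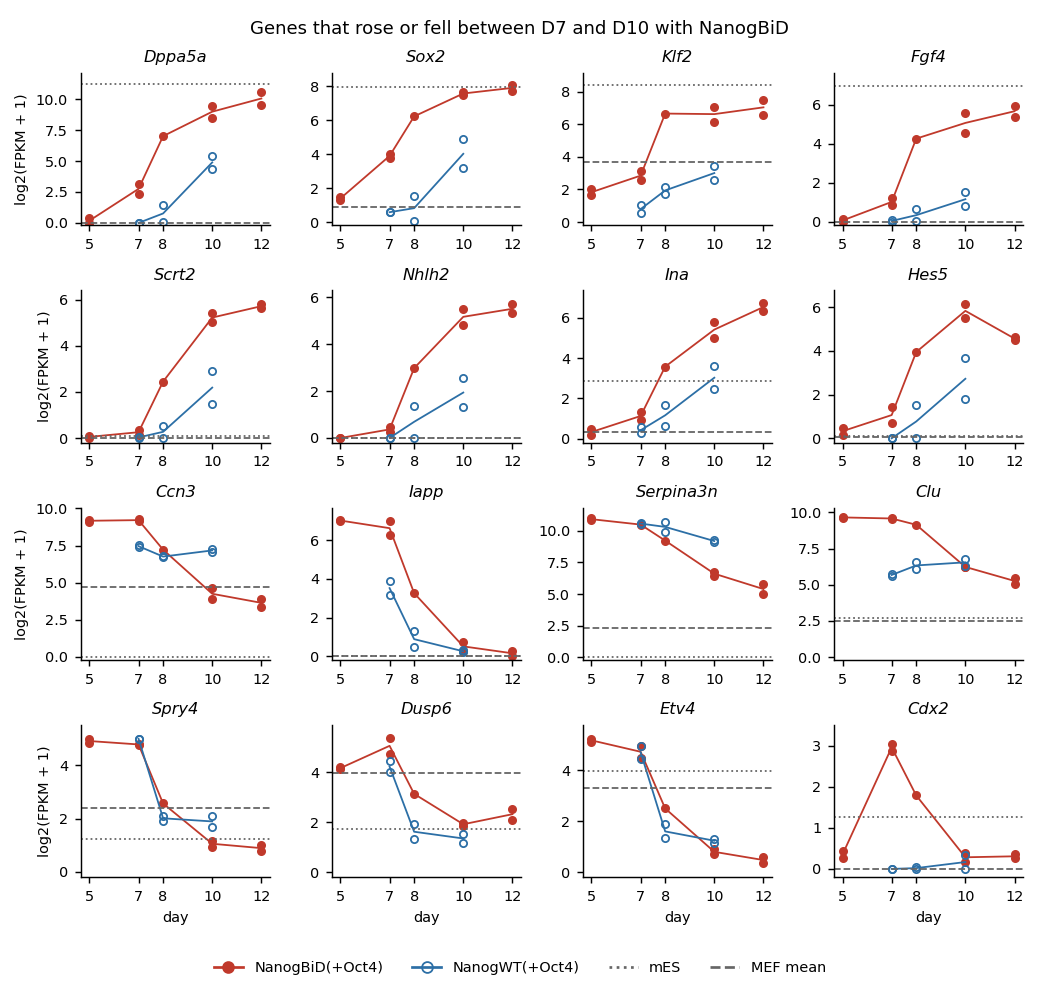
Log2(FPKM + 1) per library of 16 genes over days 5 to 12 with NanogBiD (red) and over D7 to D10 with NanogWT (blue, open), 1 point per library and lines through the means, with the mES value dotted and the MEF mean dashed. Scrt2, Nhlh2 and Hes5 rise past the mES level with NanogBiD, whereas Iapp, Ccn3 and Serpina3n fall away from D7.

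The D10 replicates ranked these programmes in opposite order. All 9 risen naive factors and 17 of 18 risen effectors were higher in replicate 1, as were all 9 risen epithelial genes, whereas 7 of 8 risen neural markers were higher in replicate 2. Over all 1341 risen genes, 718 were higher in replicate 1 and 623 in replicate 2. The median log2 difference of replicate 1 minus replicate 2 was 0.57 for the naive factors, 0.88 for the effectors and -0.68 for the neural markers. At D12 the same split was seen between replicates 1 and 2: 9 of 9 naive factors, 17 of 18 effectors and 1 of 8 neural markers were higher in replicate 1. This is a description of single libraries with no test, and whether the libraries named replicate 1 at D10 and D12 share a culture is not stated.

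Most of the 10 largest falls were of genes listed at or near 0 in mES. Iapp, which codes for the islet hormone amylin (GRCm38, chromosome 6, 142298425 to 142303820), was at 76.1 and 128 FPKM at D7, 8.61 at D8 and 0.678 and 0.195 at D10 (log2 difference -6.14, SE 0.32, adjusted p = 2.34e-10), and was listed at 0 in MEF and mES. Ccn3, a secreted matricellular protein, was at 563 and 622 FPKM at D7, 148 at D8 and 13.7 and 23.8 at D10 (log2 difference -4.96, SE 0.30, adjusted p = 6.03e-10). Serpina3n, a secreted protease inhibitor of the acute phase, was at 1437 and 1413 FPKM at D7, 592 at D8 and 86.7 and 107 at D10 (log2 difference -3.87, SE 0.35, adjusted p = 6.24e-08). Each of these genes was already lower at D8 than in both D7 libraries. Fgl2, a secreted fibrinogen-like protein, was at 127 and 191 FPKM at D7, 34.7 at D8 and 2.65 and 2.59 at D10 (log2 difference -5.44, SE 0.32, adjusted p = 5.07e-10). Gpnmb and Atp6v0d2, both known from lysosome-rich cells such as osteoclasts and macrophages, were at 183 and 182 FPKM for Gpnmb and 18.5 and 29.5 for Atp6v0d2 at D7 and at 13.4 and 10.3 and 0.0991 and 0.166 at D10. The list of 10 macrophage and blood markers was low, summing to 4.95 to 9.22 FPKM at D7 and 4.52 to 8.07 at D10. Of the 8 tested, 1 fell (Ptprc) and none rose, and this 12.5% was near the 15.7% called among all genes tested. Csf1r, the growth factor receptor of macrophages, was at 0.028 to 0.491 FPKM in all 5 libraries. Rgs4, a brake on G-protein signalling, and the uncharacterised gene 2310034C09Rik also belonged to the 10 largest falls.

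The genes known as a transient wave of the NanogBiD path were all lower at D10. In the single D8 library they had covered unlike parts of the way. The list of Clu, Iapp, U90926 and Aqp8 had been drawn up from this time course, so its direction is not independent evidence. All 4 fell from D7 to D10 with a median log2 difference of -4.21. Clu, which codes for the secreted chaperone clusterin, was at 751 and 780.5 FPKM at D7, 566 at D8 and 73.5 and 74.7 at D10 (log2 difference -3.35, SE 0.24, adjusted p = 3.94e-09). Aqp8, a water channel, was at 21.2 and 28.2 FPKM at D7, 12.1 at D8 and 0.952 and 1.00 at D10 (log2 difference -3.69, SE 0.23, adjusted p = 7.38e-10). The list summed to 886 to 970 FPKM at D7, 592 at D8 and 75.6 to 76.2 at D10, which was still above the 5.63 of mES.

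ERK feedback genes fell in part. Of 18 feedback and target genes, 10 fell and none rose, with a median log2 difference of -1.08. Spry4, an inhibitor of receptor tyrosine kinase signalling, was at 26.7 and 26.4 FPKM at D7, 4.92 at D8 and 0.910 and 1.25 at D10 (log2 difference -3.73, SE 0.22, adjusted p = 5.67e-10). Dusp6, the phosphatase that acts on ERK, was at 25.6 and 40.6 FPKM at D7, 7.77 at D8 and 2.63 and 2.93 at D10 (log2 difference -3.14, SE 0.24, adjusted p = 9.52e-09). The ETS factor Etv4 was at 30.2 and 21.6 FPKM at D7, 4.66 at D8 and 0.850 and 0.627 at D10 (log2 difference -3.94, SE 0.28, adjusted p = 4.56e-09). The immediate early factor Egr1 was at 16.2 and 10.6 FPKM at D7, 0.118 at D8 and 0.373 and 0.220 at D10 (log2 difference -3.45, SE 0.53, adjusted p = 3.87e-05). Egr1 was lowest at D8, and the other 3 had covered most of the distance by then. Spry2, Spred1, Spred3, Etv1, Phlda1 and Myc completed the fallen members. Dusp4, a nuclear phosphatase of the same family as Dusp6, was at 25.3 and 28.3 FPKM at D7, 12.02 at D8 and 24.3 and 33.2 at D10 (log2 difference 0.08, SE 0.32, adjusted p = 0.866), so that only its D8 value stood below the others. With NanogWT, 11 of the 18 fell and none rose in the same interval, where 4.59% of all genes tested fell and 5.69% rose.

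Beta-catenin targets did not rise as a group. Of 16 tested, 1 rose and 4 fell, with a median log2 difference of -0.38. Axin2, the negative feedback gene of the pathway, was at 19.05 and 14.8 FPKM at D7, 24.9 at D8 and 12.99 and 24.6 at D10 and its days overlapped (log2 difference 0.09, SE 0.26, adjusted p = 0.821). Sp5, a zinc finger target of beta-catenin, was at 57.5 and 32.1 FPKM at D7, 63.7 at D8 and 5.59 and 14.6 at D10 (log2 difference -2.12, SE 0.55, adjusted p = 0.00463), a call that was lost without D7 replicate 1 (adjusted p = 0.0581) or D10 replicate 1 (adjusted p = 0.0913) and in the fit to the compared groups alone (adjusted p = 0.0562). Cdx1 and Cdx2, caudal homeobox genes of the posterior embryo, both fell. Cdx2 was at 7.29 and 6.28 FPKM at D7, 2.45 at D8 and 0.126 and 0.316 at D10 (log2 difference -2.67, SE 0.13, adjusted p = 2.23e-10), and Cdx1 was at 35.3 and 29.6 FPKM at D7, 33.5 at D8 and 4.04 and 8.78 at D10 (log2 difference -2.25, SE 0.30, adjusted p = 6.6e-06). T, the brachyury gene of the primitive streak, fell from 3.71 and 4.20 FPKM to 0.523 and 1.01 (log2 difference -1.5, SE 0.12, adjusted p = 1.36e-08). Lgr5, the R-spondin receptor, was the member that rose, from 1.59 and 1.31 FPKM to 3.06 and 6.83 (log2 difference 1.20, SE 0.31, adjusted p = 0.00448), but only 0.73 (adjusted p = 0.115) without D10 replicate 2, and its call was lost in the fit to the compared groups alone (adjusted p = 0.0853). With NanogWT, 4 of the 16 rose and none fell, where 5.69% of all genes tested rose and 4.59% fell.

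The LIF axis was mixed. Of 12 genes, 5 fell (Lifr, Jak1, Stat3, Bcl3 and Osmr) and 1 rose, with a median log2 difference of -0.82. The LIF receptor Lifr was at 24.2 and 25.4 FPKM at D7, 16.2 at D8 and 6.51 and 7.92 at D10 (log2 difference -1.65, SE 0.20, adjusted p = 2.82e-06), towards the 4.23 FPKM of mES. Osmr, the oncostatin M receptor of mesenchymal cells, was at 20.4 and 19.9 FPKM at D7, 14.5 at D8 and 3.47 and 5.82 at D10 (log2 difference -1.94, SE 0.25, adjusted p = 5.75e-06) and was listed at 0 in mES. Pim1, a kinase induced by Stat3, was at 12.3 and 8.74 FPKM at D7, 23.1 at D8 and 42.7 and 34.1 at D10 (log2 difference 1.78, SE 0.26, adjusted p = 2.32e-05). Socs3, the feedback inhibitor of the pathway, was at 49.7 and 45.6 FPKM at D7, 52.6 at D8 and 21.1 and 37.1 at D10 and was not called (log2 difference -0.74, SE 0.40, adjusted p = 0.155).

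Fibroblast matrix genes were below the MEF level at D7, and part of them fell. Of 24, 9 fell and none rose, with a median log2 difference of -0.40, and the list summed to 1758 to 2142 FPKM at D7, 1988 at D8 and 1001 to 1238 at D10, against 12746 to 13751 in MEF and 318 in mES. Postn, which codes for periostin, was at 666 and 598 FPKM at D7, 265 at D8 and 117 and 82.8 at D10 (log2 difference -2.67, SE 0.21, adjusted p = 1.63e-08). The collagen cross-linking enzyme Lox was at 70.3 and 65.01 FPKM at D7, 69.1 at D8 and 26.7 and 20.7 at D10 (log2 difference -1.48, SE 0.23, adjusted p = 4.33e-05). The main fibrillar collagens did not follow. Col1a1 was at 147 and 74.6 FPKM at D7, 313 at D8 and 192 and 157 at D10 and was not called (log2 difference 0.72, SE 0.26, adjusted p = 0.0306), although it passed at 1.21 without D7 replicate 1. Col3a1 was at 104 and 70.2 FPKM at D7, 155 at D8 and 115 and 92.5 at D10 (log2 difference 0.27, SE 0.23, adjusted p = 0.362), and its D7 and D10 values overlapped. Fibronectin (Fn1) was at 216 and 166 FPKM at D7, 178 at D8 and 152 and 129 at D10 (log2 difference -0.44, SE 0.25, adjusted p = 0.181). For 9 fibroblast markers, the summed level was 280 to 420 FPKM at D7, 710 at D8 and 380 to 462 at D10, against 5589 to 6585 in MEF and 4.61 in mES, and 3 of them fell (Lum, Pdgfra and Prrx1).

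Mesenchymal regulators and surface genes also fell in part. Of 20, 8 fell and none rose, with a median log2 difference of -0.93. Cd44, the hyaluronan receptor, was at 48.6 and 56.2 FPKM at D7, 26.4 at D8 and 6.98 and 6.86 at D10 (log2 difference -2.75, SE 0.20, adjusted p = 5.73e-09). Prrx1, a homeobox factor of limb and skin mesenchyme, was at 7.91 and 9.03 FPKM at D7, 6.73 at D8 and 2.78 and 2.45 at D10 (log2 difference -1.39, SE 0.20, adjusted p = 1.41e-05). Twist1 and Thy1 missed the 2-fold limit, with log2 differences of -0.93 and -0.94, and passed it without D7 replicate 2 (-1.12 and -1.38) or D10 replicate 1 (-1.06 and -1.11) and with quantile normalization (-1.0 and -1.02). Zeb2, a repressor of E-cadherin, was at 11.6 and 11.9 FPKM at D7, 8.18 at D8 and 7.54 and 12.1 at D10 (log2 difference -0.27, SE 0.27, adjusted p = 0.467), and both days overlapped.

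Contractile genes peaked in the D8 library. Of 12 smooth muscle and contractile genes, 11 were higher at D8 than in every D7 and D10 library, as were 16.8% of all genes tested, and 6 exceeded all 4 by at least 2-fold, as did 0.309%. Acta2, the smooth muscle actin, was at 18.1 and 16.8 FPKM at D7, 118 at D8 and 8.06 and 5.33 at D10 (log2 difference -1.28, SE 0.32, adjusted p = 0.00365), and its call between D7 and D10 was lost without D10 replicate 2 (-1.03, adjusted p = 0.0567). Tagln, an actin-binding protein of smooth muscle, was at 8.56 and 4.62 FPKM at D7, 79.8 at D8 and 10.8 and 7.81 at D10, and Myl9, the myosin regulatory light chain, was at 5.05 and 6.33 FPKM at D7, 72.8 at D8 and 6.47 and 5.11 at D10. Neither Tagln (log2 difference 0.48, SE 0.40, adjusted p = 0.369) nor Myl9 (log2 difference 0.02, SE 0.42, adjusted p = 0.982) was called between D7 and D10. Between the outer days, 4 of the 12 fell (Acta2, Tpm1, Actg2 and Des). Pcsk7 was highest at D8 too, at 25.4 FPKM, but its gene overlaps Tagln, and their reads cannot be told apart. Phlda2, an imprinted growth regulator, was at 5.63 and 8.05 FPKM at D7, 45.3 at D8 and 13.5 and 6.18 at D10. With NanogWT, Acta2 was at 77.5 and 72.4 FPKM at D8 and 56.4 and 54.03 at D10. Tagln was at 84.2 and 86.1 FPKM at D8 and 101 and 83.8 at D10 with NanogWT. The 12 genes together summed to 353 to 425 FPKM at D7 and 731 to 848 at D10 in that combination. Its D8 libraries had a relative depth of 1.93 and 2.04, so that depth and day cannot be told apart there. D8 with NanogBiD was a single library, so its values have no replicate check.

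**Figure D3:**
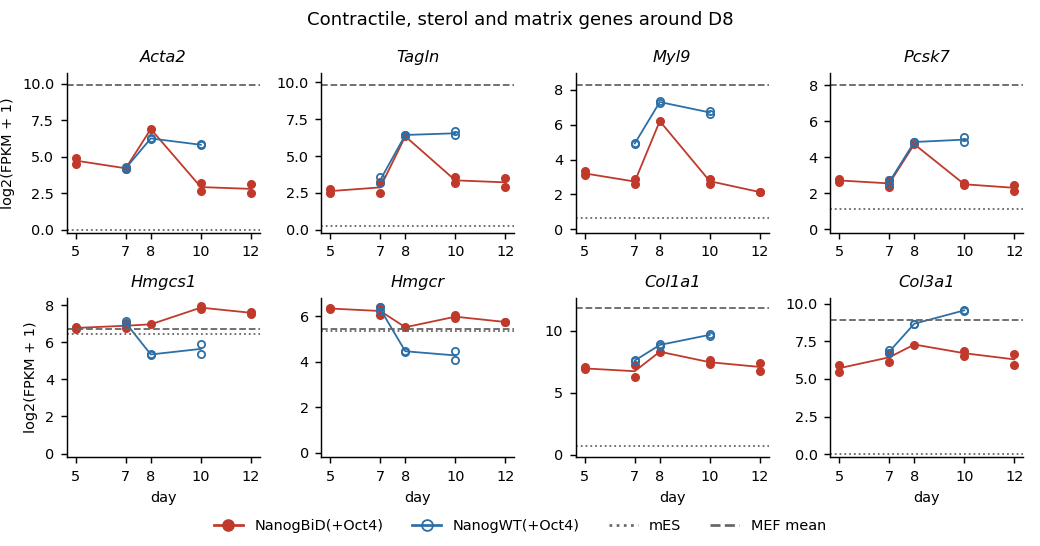
Log2(FPKM + 1) per library of 8 genes over days 5 to 12 with NanogBiD (red) and over D7 to D10 with NanogWT (blue, open), with lines through the means, the mES value dotted and the MEF mean dashed. Acta2, Tagln and Myl9 reach 72.8 to 118 FPKM in the single D8 library with NanogBiD and lie between 4.62 and 18.1 in the D7 and D10 libraries.

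The 5 genes furthest below both days at D8 were Rps28, Snord64, Dusp4, Mir6938 and the ephrin receptor Epha3. Rps28, a ribosomal protein gene, was at 99.7 and 61.4 FPKM at D7, 1.83 at D8 and 43.4 and 141 at D10 and varied widely between replicates, and Snord64 and Mir6938 are small RNA genes whose FPKM are uncertain. Of all genes tested, 0.0475% were at least 2-fold below every D7 and D10 library at D8.

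Epithelial genes rose in part. Of 19 tested, 9 rose, with a median log2 difference of 0.92. The adherens junction gene Cdh1 (E-cadherin) was at 6.78 and 6.06 FPKM at D7, 20.4 at D8 and 38.7 and 20.7 at D10 (log2 difference 1.99, SE 0.31, adjusted p = 4.94e-05), against 185 FPKM in mES. Krt8, a keratin of simple epithelia, was at 3.88 and 2.96 FPKM at D7, 23.9 at D8 and 41.6 and 15.2 at D10 (log2 difference 2.58, SE 0.43, adjusted p = 9.58e-05). Cldn4, Cldn6, Tjp3, Krt18, Krt19, Rab25 and St14 also rose. Epcam was at 17.1 and 16.4 FPKM at D7, 34.98 at D8 and 41.9 and 20.2 at D10 and was not called (log2 difference 0.77, SE 0.34, adjusted p = 0.0826), except without D10 replicate 2 (1.27).

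Factors and targets of signals tied to the fibroblast state changed in a few members. Of 10 AP-1 factors, Fos and Atf3 fell and none rose, and Fos was at 8.73 and 9.02 FPKM at D7, 5.32 at D8 and 0.998 and 1.84 at D10 (log2 difference -2.05, SE 0.30, adjusted p = 2.04e-05). Jun was at 80.01 and 60.9 FPKM at D7, 74.6 at D8 and 37.7 and 42.6 at D10 and was not called (log2 difference -0.79, SE 0.32, adjusted p = 0.0556). Of 12 TGF-beta targets, 2 rose and 2 fell, among them Tgfbi, an extracellular protein, at 228 and 146 FPKM at D7, 188 at D8 and 53.9 and 56.3 at D10 (log2 difference -1.71, SE 0.29, adjusted p = 9.01e-05). Of 10 BMP targets, 2 rose and 1 fell. Id4, an inhibitor of helix-loop-helix factors, was at 3.95 and 4.37 FPKM at D7, 9.22 at D8 and 18.7 and 24.1 at D10 (log2 difference 2.11, SE 0.22, adjusted p = 3.22e-07), and Bmp4 was at 10.9 and 9.09 FPKM at D7, 10.4 at D8 and 4.95 and 3.08 at D10 (log2 difference -1.15, SE 0.26, adjusted p = 0.00156), at -0.88 without D10 replicate 2. Id1 was at 42.8 and 35.9 FPKM at D7, 42.9 at D8 and 24.5 and 24.3 at D10 and was not called (log2 difference -0.66, SE 0.33, adjusted p = 0.122).

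Genes of the cell cycle leaned upwards. Of 24, 8 rose and none fell, and 23 had a positive log2 difference, with a median of 0.92. Among all 16842 genes tested, 8967 had a positive difference. The mitotic kinase Aurkb was at 18.8 and 14.8 FPKM at D7, 32.6 at D8 and 48.1 and 43.1 at D10 (log2 difference 1.39, SE 0.23, adjusted p = 7.95e-05). Mki67, the proliferation marker, was at 29.1 and 21.2 FPKM at D7, 35.5 at D8 and 42.3 and 55.8 at D10 and missed the 2-fold limit (log2 difference 0.94, SE 0.29, adjusted p = 0.0151), which it passed without D7 replicate 1 (1.16) or D10 replicate 1 (1.14). Of 16 p53 targets and cell cycle inhibitors, 4 rose and 1 fell. Cdkn1c, the imprinted gene of the inhibitor p57, was at 68.9 and 66.6 FPKM at D7, 152 at D8 and 269 and 286 at D10 (log2 difference 2.02, SE 0.19, adjusted p = 1.54e-07), although mES had 0.310 FPKM. Cdkn1a, the main p53 target among the inhibitors, was at 148 and 139 FPKM at D7, 114 at D8 and 123 and 121 at D10 (log2 difference -0.23, SE 0.14, adjusted p = 0.192), and Cdkn2a was at 46.99 and 66.8 FPKM at D7, 71.8 at D8 and 40.03 and 35.5 at D10 (log2 difference -0.56, SE 0.26, adjusted p = 0.0952).

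Metabolic genes moved in glycolysis and one-carbon metabolism. Of 19 glycolysis genes, 7 rose and none fell, all 19 had a positive log2 difference and the median was 0.87. A positive difference was found in 8967 of all 16842 genes tested. The glucose transporter Slc2a1 was at 131 and 153 FPKM at D7, 254 at D8 and 399 and 373 at D10 (log2 difference 1.44, SE 0.20, adjusted p = 1.05e-05). Hexokinase Hk2, the entry enzyme, was at 21.3 and 14.4 FPKM at D7, 21.3 at D8 and 46.5 and 36.8 at D10 (log2 difference 1.19, SE 0.18, adjusted p = 3.97e-05), and at 0.93 without D7 replicate 2. Of 15 genes of serine, glycine and threonine metabolism, 6 rose and none fell. Tdh, the threonine dehydrogenase on which mouse stem cells depend, was at 14.99 and 16.6 FPKM at D7, 85.8 at D8 and 96.03 and 64.4 at D10 (log2 difference 2.25, SE 0.46, adjusted p = 0.000615), a call that was lost with a pseudocount of 0.1 (adjusted p = 0.0520). The glycine cleavage enzyme Gldc was at 14.1 and 13.7 FPKM at D7, 15.6 at D8 and 28.6 and 32.4 at D10 (log2 difference 1.08, SE 0.19, adjusted p = 0.000121), and at 0.99 without D10 replicate 2. Of 12 oxidative stress and metallothionein genes, 2 fell, and this 16.7% was near the 15.7% called among all genes tested. The cystine transporter Slc7a11 was at 38.8 and 38.6 FPKM at D7, 9.28 at D8 and 4.41 and 5.78 at D10 (log2 difference -2.71, SE 0.27, adjusted p = 1.87e-07), and the metallothionein Mt1 was at 119.7 and 289 FPKM at D7, 125 at D8 and 56.2 and 33.8 at D10 (log2 difference -2.07, SE 0.36, adjusted p = 0.00013), a call that was lost in the fit to the compared groups alone (adjusted p = 0.0563).

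Epigenetic regulators and their known targets rose in part. Of 9 genes of DNA methylation and its removal, 4 rose (Dnmt1, Dnmt3l, Tet1 and Tet2) and none fell. Tet1, which oxidises methylcytosine, was at 2.79 and 3.55 FPKM at D7, 6.17 at D8 and 10.7 and 11.8 at D10 (log2 difference 1.56, SE 0.24, adjusted p = 3.09e-05). Dnmt3l, the catalytically inactive partner of the de novo methyltransferases, was at 0.189 and 0.161 FPKM at D7, 0.589 at D8 and 8.23 and 3.47 at D10 (log2 difference 2.45, SE 0.38, adjusted p = 3.94e-05). Dnmt3b was at 6.33 and 6.88 FPKM at D7, 15.2 at D8 and 16.2 and 10.3 at D10 and missed the 2-fold limit (log2 difference 0.87, SE 0.24, adjusted p = 0.00634), except without D10 replicate 2 (1.18). Of 18 germline genes known to be silenced by methylation, 10 could be tested and 5 rose. The germ cell RNA-binding gene Dazl was at 0 and 0.0362 FPKM at D7, 0.392 at D8 and 2.16 and 2.25 at D10 (log2 difference 1.66, SE 0.24, adjusted p = 1.65e-05), while Mael, a gene of piRNA formation, was listed at 0 to 0.479 FPKM in the 5 libraries. Of 14 genes of the 2-cell stage, 4 could be tested and 0 were called by limma. All 4 had an unadjusted p under 0.05, as did 47.3% of all genes tested. Zscan4c, a telomere regulator of this stage, was listed at 0 at D7 and D8 and at 0.237 and 0.744 FPKM at D10. It missed only the 2-fold limit (log2 difference 0.55, SE 0.14, adjusted p = 0.0034) and passed with a pseudocount of 0.1 (2.41, adjusted p = 0.000486). Among 21 BAF subunit genes, 2 rose (Smarcd1 and Bcl7a) and none fell, 9.52% against the 15.7% of all genes tested. Bcl7a was at 6.67 and 8.36 FPKM at D7, 11.1 at D8 and 16.98 and 26.8 at D10 (log2 difference 1.40, SE 0.27, adjusted p = 0.00045).

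Part of the interferon-stimulated and antigen presentation genes fell. Of 18 interferon-stimulated genes, 11 fell and none rose, and all 18 had a negative log2 difference with a median of -1.24. A negative difference was found in 7745 of all 16842 genes tested. Ifit1, which binds foreign RNA, was at 9.37 and 8.51 FPKM at D7, 4.68 at D8 and 1.35 and 1.44 at D10 (log2 difference -2.05, SE 0.41, adjusted p = 0.000524). The regulator Irf7 was at 15.4 and 8.40 FPKM at D7, 4.57 at D8 and 1.74 and 0.980 at D10 (log2 difference -2.41, SE 0.35, adjusted p = 1.63e-05), and Bst2, the tetherin gene, was at 151 and 122 FPKM at D7, 144 at D8 and 99.97 and 58.7 at D10 and was not called (log2 difference -0.82, SE 0.57, adjusted p = 0.271). Of 12 genes of MHC class I and antigen processing, 6 fell and none rose, with a median of -1.14. B2m, the light chain common to class I molecules, was at 856 and 1214 FPKM at D7, 415 at D8 and 130.04 and 128 at D10 (log2 difference -2.97, SE 0.20, adjusted p = 2.14e-09). The heavy chain H2-K1 was at 115 and 126 FPKM at D7, 78.5 at D8 and 45.7 and 40.3 at D10 (log2 difference -1.46, SE 0.17, adjusted p = 1.08e-06). MHC class I genes are near-identical copies, and how multimapped reads were split is not stated.

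The promoters of Ifit1 and B2m are shown because both hold the interferon-stimulated response element, searched as GAAA, any 2 bases and GAAA again, or the complement with TTTC, on both strands. The windows run from 250 bases before to 50 bases after the RefSeq start site on the plus strand (GRCm38.p6, chr19:34640639-34640938 for Ifit1 and chr2:122147437-122147736 for B2m), and capitals mark the matches.
Ifit1: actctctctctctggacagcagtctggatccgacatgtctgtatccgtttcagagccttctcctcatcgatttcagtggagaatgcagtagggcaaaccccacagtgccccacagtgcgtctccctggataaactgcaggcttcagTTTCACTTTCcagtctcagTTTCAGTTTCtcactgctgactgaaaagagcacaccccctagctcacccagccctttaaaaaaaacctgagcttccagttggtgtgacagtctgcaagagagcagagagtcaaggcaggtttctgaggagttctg
B2m: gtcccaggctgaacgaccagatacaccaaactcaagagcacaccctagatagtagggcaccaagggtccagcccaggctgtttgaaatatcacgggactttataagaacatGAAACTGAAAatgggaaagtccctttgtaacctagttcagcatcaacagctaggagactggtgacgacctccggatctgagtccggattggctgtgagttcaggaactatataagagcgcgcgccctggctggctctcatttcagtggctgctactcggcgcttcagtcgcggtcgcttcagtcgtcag
Ifit1 held 2 matches and B2m 1. The motif occurs in 1131 of 32851 windows (3.44%), in 7 of 13 interferon-stimulated genes and in 3 of 10 genes of antigen processing with a window. Among the genes that fell from D7 to D10, 51 of 922 windows held it (5.53%), and among those that rose, 27 of 897 (3.01%).

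Markers of other lineages changed in part. Of 9 tested primitive endoderm markers, 2 fell (Sox17 and Lamb1) and none rose, 22.2% against the 15.7% called among all genes tested. Sox17 was at -1.01 and Lamb1 at -1.21, and both were under the 2-fold limit when 1 D7 library was left out (-0.81 for Sox17 and -0.99 for Lamb1). Sox17 was also under it without D10 replicate 1 (-0.88) or with quantile normalization (-0.95). Gata6 was at 0.322 and 0.576 FPKM at D7, 0.128 at D8 and 0.427 and 0.655 at D10. Of 8 tested trophoblast markers, 5 rose and Cdx2 fell. Tead4 was at 0.984 and 0.840 FPKM at D7, 1.75 at D8 and 6.86 and 3.76 at D10 (log2 difference 1.68, SE 0.26, adjusted p = 3.96e-05), and mES also had 23.7 FPKM. The trophoblast determinant Elf5 was at 0 to 0.179 FPKM in the 5 libraries. Of 4 tested mesoderm genes, T and Tbx6 fell. Pecam1, an endothelial adhesion gene also expressed in mES at 47.4 FPKM, was at 0.677 and 0.759 FPKM at D7, 2.18 at D8 and 12.1 and 5.95 at D10 (log2 difference 2.48, SE 0.28, adjusted p = 1.09e-06), while the list's defining genes Cdh5, Tie1 and Emcn were too low to be tested. The part of any other cell type in the results above was not tested.

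The D8 library stood near the middle of the way. Its position between the D7 and D10 means, 0 at D7 and 1 at D10, had a median of 0.495 over the 2651 called genes (quartiles 0.315 and 0.669). The median was 0.50 for the genes that rose and 0.492 for those that fell. D8 lay outside the D7 to D10 range on the D7 side in 122 genes and on the D10 side in 108. By list, the median position of the called members was 0.749 for pluripotency effectors, 0.770 for epithelial genes, 0.484 for neural markers, 0.359 for interferon-stimulated genes and 0.291 for mesenchymal genes. Only 1 library stands behind these positions, and day 8 is 1 of the 3 days of the interval.

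An activation score placed each library between MEF (0) and mES (100) over 1190 genes at least 4-fold higher in mES, and a silencing score did so over 1067 genes at least 4-fold lower. The activation score was 32.3 and 31.4 at D7, 50.3 at D8 and 64.0 and 54.7 at D10, a mean difference of 27.5 ± 6.62 (SD of the difference, n = 2 per day). The silencing score was 34.8 and 38.6 at D7, 38.6 at D8 and 53 and 52.1 at D10, a difference of 15.9 ± 2.78. Both scores were higher in each D10 library than in each D7 library. At D8 the activation score lay past the middle of this distance, whereas the silencing score was 38.6 at D8 and in D7 replicate 2 alike. With 2 libraries per day an exact permutation test cannot reach a p under 0.05, and none is given.

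**Figure D4:**
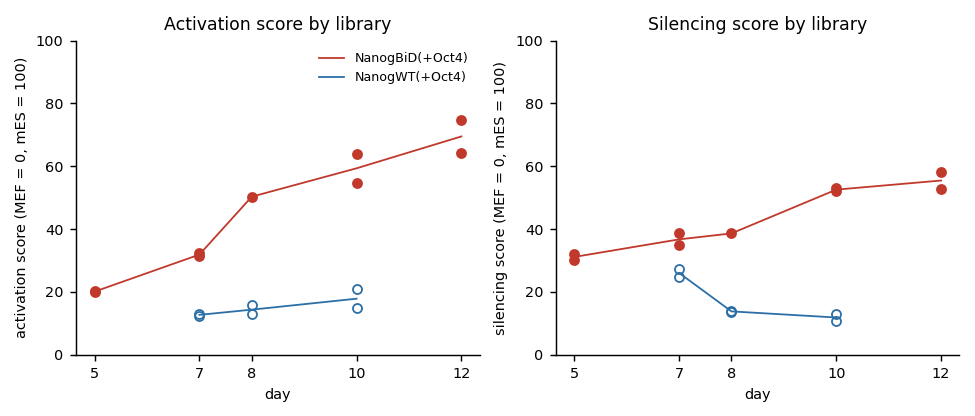
Activation and silencing scores per library (0 for the MEF mean, 100 for the mES library) over days 5 to 12 with NanogBiD (red) and D7 to D10 with NanogWT (blue, open). The NanogBiD activation score passes from 31.4 and 32.3 at D7 to 54.7 and 64.0 at D10, and the NanogWT silencing score falls from a mean of 26.0 to a mean of 11.8.

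The same interval with NanogWT served to show where the NanogBiD change differed. With NanogWT, 1732 genes were called between D7 and D10 (10.3%), of which 959 rose (5.69%) and 773 fell (4.59%). The D7 to D10 difference itself differed between the combinations (interaction) in 2545 genes (15.1%), being higher with NanogBiD in 1132 (6.72%) and lower in 1413 (8.39%). Of the 2651 genes called with NanogBiD, 1338 (50.5%) passed the interaction as well. The NanogWT libraries had a relative depth of 0.979 and 1.06 at D7 and of 1.85 and 3.07 at D10. With NanogWT, depth and day can therefore not be told apart, and neither can depth and combination at D10. This holds for every NanogWT change from D7 to D10 given above and below. Activation with NanogWT went from a mean score of 12.6 to 17.8, and silencing from 26.0 to 11.8, away from mES.

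Matrix genes differed between the combinations. Of the 24 matrix genes, 18 rose and none fell with NanogWT, and the interaction was lower with NanogBiD in 20. Lox was at 30.8 and 30.7 at D7 and 301 and 319.6 at D10 FPKM with NanogWT (interaction -4.78 on the log2 scale, SE 0.33, adjusted p = 1.73e-08). Col3a1 was at 119.9 and 103 at D7 and 778 and 721 at D10 with NanogWT (interaction -2.47 on the log2 scale, SE 0.32, adjusted p = 1.73e-05). Of the 12 contractile genes, 8 rose and 1 fell with NanogWT, and the interaction was lower in 9. For Ccn3, the NanogWT values were 165 and 185 at D7 and 132 and 156 at D10 (interaction -4.67 on the log2 scale, SE 0.42, adjusted p = 3.48e-07), and for Clu they were 47.5 and 52.9 at D7 and 109.9 and 78.1 at D10 (interaction -4.23 on the log2 scale, SE 0.34, adjusted p = 7.95e-08). The chloride channel regulator Clca3a2 rose with NanogWT and fell with NanogBiD.

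Genes with a higher difference under NanogBiD were led by Calcoco2 (interaction 3.45 on the log2 scale, SE 0.44, adjusted p = 1.33e-05), which was at 0.429 and 0.183 FPKM at D7, 18.4 at D8 and 32.5 and 15.8 at D10 with NanogBiD and at 0 and 0 at D7 and 0.468 and 0.894 at D10 with NanogWT. Fbxo15, a stem cell F-box gene, was at 3.62 and 5.45 FPKM at D7, 16.5 at D8 and 24.9 and 14.8 at D10 with NanogBiD and at 5.06 and 5.91 at D7 and 1.00 and 1.84 at D10 with NanogWT (interaction 3.33 on the log2 scale, SE 0.48, adjusted p = 5.3e-05). The X-linked homeobox genes Rhox6 and Rhox9, expressed in germ cells and placenta, were at 21.5 and 5.95 FPKM for Rhox6 and 17.1 and 8.68 for Rhox9 at D10, against 0.231 and 0.394 and 0.303 and 0.0455 with NanogWT. Sox3 was the other member of the 5 highest (interaction 3.21 on the log2 scale, SE 0.73, adjusted p = 0.00304). Several neural genes rose in both combinations: Hes5 was at 0 and 0 at D7 and 2.45 and 11.6 at D10 with NanogWT (interaction 2.04 on the log2 scale, SE 0.63, adjusted p = 0.0228), and Fabp7 at 2.07 and 1.38 at D7 and 12.9 and 32.7 at D10, where the interaction was not called (interaction 1.16 on the log2 scale, SE 0.77, adjusted p = 0.301). Of the 18 ERK feedback genes, 2 passed the interaction, both lower, and the median interaction was 0.06. Among all genes tested, 15.1% passed it.

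Cholesterol synthesis genes differed between the combinations. With NanogBiD, 2 of 21 genes fell, among them Hsd17b7, and none rose, with a median log2 difference of 0.09. These 2 made up 9.52%, below the 15.7% called among all genes tested. With NanogWT, 20 of the 21 fell, with a median of -1.97, and the interaction was higher with NanogBiD in 18. Hmgcs1, which makes the precursor of mevalonate, was at 108 and 128 FPKM at D7, 124 at D8 and 216 and 248 at D10 with NanogBiD and missed the 2-fold limit (log2 difference 0.98, SE 0.16, adjusted p = 7.99e-05), which it passed without D7 replicate 2 (1.10) or D10 replicate 1 (1.07). With NanogWT it was at 123 and 138 at D7 and 40.6 and 58.6 at D10. At D8, 11 of the 21 were lower than in every D7 and D10 library with NanogBiD, as were 10.6% of all genes tested. Of the 18 interferon-stimulated genes, the interaction was higher with NanogBiD in 9 and lower in 1, and 8 did not pass. With NanogWT, 15 of them fell, with a median of -2.62, from summed levels of 894 to 983 FPKM at D7 to 276 to 402 at D10, while NanogBiD libraries started at 255 to 319.

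The Hmgcs1 promoter is shown because it was the only one of 14 cholesterol genes with a window that held the sterol response element TCACNCCAC or its complement GTGGNGTGA on either strand. It spans 250 bases before to 50 after the RefSeq start site (GRCm38.p6, chr13:119690101-119690400, plus strand), with the match in capitals.
Hmgcs1: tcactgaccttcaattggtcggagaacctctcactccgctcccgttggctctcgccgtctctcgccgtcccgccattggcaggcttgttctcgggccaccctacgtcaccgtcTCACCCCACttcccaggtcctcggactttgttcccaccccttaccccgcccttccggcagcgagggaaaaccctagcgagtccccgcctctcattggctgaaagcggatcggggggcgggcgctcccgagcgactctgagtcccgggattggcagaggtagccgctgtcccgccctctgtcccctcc
The motif occurs in 408 of 32851 windows (1.24%), and no match in the other 13 says only that these letters are absent from their windows.

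**Figure D5:**
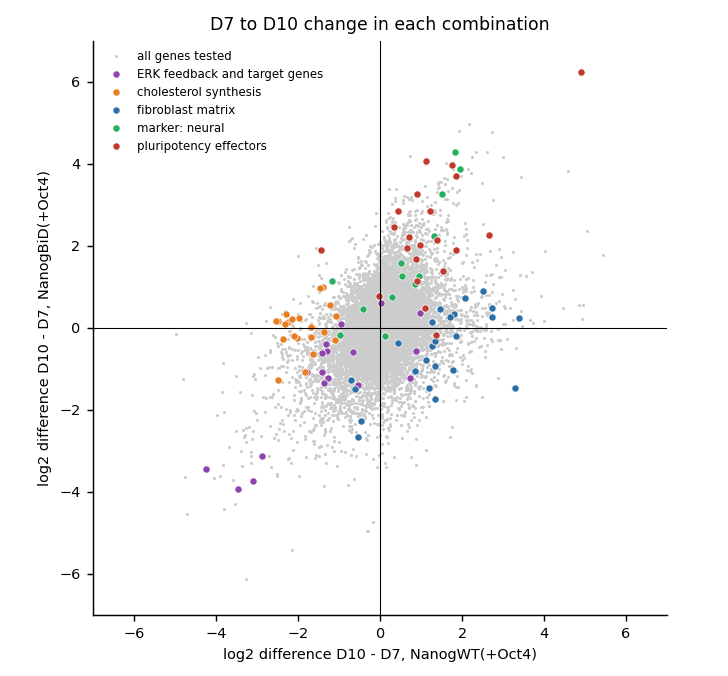
Log2 difference of D10 minus D7 with NanogBiD (vertical) against NanogWT (horizontal), 1 point per gene tested, with members of selected lists in colour. Fibroblast matrix genes lie to the right with 18 of 24 risen under NanogWT, and cholesterol genes lie to the left with 20 of 21 fallen under NanogWT and near 0 with NanogBiD.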

How the data were processed

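RNA-seq was available for 46 samples, and the gene table for 34 of them. According to the study's methods, reads were trimmed by the authors with Trim Galore 0.6.4, aligned to mm10 with HISAT2 2.2.1 and quantified with StringTie 2.2.1, the versions being those of the submitters' processing notes. The deposited values are FPKM per gene (37108 genes), with replicates kept apart, and the annotation and use of strand are not given in the sources used here. Groups came from the sample labels.

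FPKM are not counts, so log2(FPKM + 1) was fitted with limma 3.58.1 (R 4.3.3, with the trend option of eBayes) over the 31 time-course libraries with 1 mean per combination and day, 16 groups that share 1 estimate of the spread. The test covered the 16842 genes that reached 1 FPKM in 2 or more of these libraries. A gene was called at a two-sided Benjamini-Hochberg adjusted p under 0.05 over all genes tested and a difference of at least 2-fold. D8 with NanogBiD was 1 library and was given as a value without a test. Relative depth came from 5634 low genes, whose values are multiples of what 1 read is worth, and total depth is unknown, so no counting interval is given. The script was checked on simulated data. Tables and figures were made with Python 3.11.15 (matplotlib 3.10.9, numpy 2.4.6, pandas 2.3.3, scipy 1.17.1). RefSeq (GRCm38.p6) supplied biotypes, coordinates and promoter windows, and 15842 of the 16842 genes tested matched it by symbol.

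Genes were named by rule: fixed anchors of each of the 34 lists with its called members of largest rise and fall, the 10 largest rises and falls among called protein-coding genes whose higher group averaged 10 FPKM or more and without overlap of days, the 5 highest and lowest of the interaction on the same terms, and the 5 genes furthest above and below both days at D8. Other genes were named as members of a list that passed the test. A few genes that the rule picks are not reported here, though list counts include them. The interval, the lists and the rules were chosen with earlier results of these data known. Alternatives were a pseudocount of 0.1, other low-value filters, TPM scaling, quantile normalization, no fold limit, fits to fewer groups, a replicate block, other score settings and leaving out each library in turn. The authors' transcript table of the iPSC was not used here.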

Additional observations from a re-analysis of the deposited data

Results flagged for a closer look

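The change from D7 to D10 differed between NanogBiD and NanogWT, by a limma test of the difference itself, in 2545 genes. Among the genes named by rule, 70 passed it, and their interaction on the log2 scale (the D10 minus D7 difference with NanogBiD minus that with NanogWT) is given here with no explanation. Values for the naive factors, effectors and other stem cell or germ cell genes were 2.95 for Fgf4, 1.93 for Zfp42, 3.33 for Fbxo15, 2.11 for Dnmt3l, 1.68 for Dazl, 1.26 for Tet1, 2.99 for Rhox6, 3.17 for Rhox9 and 3.21 for Sox3. The neural genes stood at 2.86 for Nhlh2, 2.81 for Scrt2, 2.04 for Hes5, 1.94 for Msx3, 1.93 for Elavl3, 1.68 for Ina and 1.05 for Pax6. Interactions of the fibroblast matrix and adhesion genes were 1.26 for Ctgf, -4.78 for Lox, -1.35 for Col1a1, -2.47 for Col3a1, -1.89 for Dcn, -1.69 for Fn1, -2.13 for Postn, -2.21 for Lamb1 and -1.79 for Tgfbi. For the mesenchymal and contractile genes, the interactions were -2.88 for Acta2, -2.69 for Tagln, -1.76 for Myl9, -2.41 for Pcsk7, -2.37 for Tpm1, -2.44 for Cd44, -2.04 for Prrx1, -2.61 for Thy1 and -2.65 for Twist1. The genes with the largest falls or the lowest interaction had interactions of -4.67 for Ccn3, -4.23 for Clu, -4.37 for Clca3a2, -2.86 for Iapp, -3.28 for Fgl2, -3.07 for Gpnmb and -2.49 for Serpina3n. Those of the Wnt, LIF, BMP, AP-1 and activin genes were 2.08 for Pim1, -1.34 for Axin2, -2.39 for Sp5, -2.99 for Cdx1, -2.84 for Cdx2, -1.59 for T, -1.42 for Lifr, -2.64 for Osmr, -1.84 for Socs3, -2.72 for Bmp4, -2.35 for Id1, -1.21 for Fos, -1.72 for Jun and -3.02 for Fst. Among the cell cycle and p53 genes they were 1.51 for Aurkb, 1.48 for Mki67, 1.33 for Cdkn1c, -1.70 for Cdkn2a and -1.41 for Pmaip1. In the metabolic genes they were 2.37 for Hmgcs1, 2.08 for Hk2, 1.37 for Gldc and -2.24 for Mt1. For the remaining genes they were 1.75 for Ifit1, 2.43 for Krt8, 2.59 for Pecam1, 1.35 for Epha3, 3.45 for Calcoco2 and -2.31 for B2m. The D10 libraries with NanogWT were 1.85 and 3.07 times as deep on the relative scale, against 0.914 and 0.920 with NanogBiD, so that depth and combination cannot be told apart in these values.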

How the results depend on the processing

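The number of genes called between D7 and D10 with NanogBiD was 2651, and it moved by more than 1.5 times under 2 alternatives. With a filter at a mean of at least 5 FPKM it was 1386, of which 493 rose and 893 fell, so that risen genes made up 35.6% in place of 50.6%, and without the fold limit it was 6610. The interaction count of 2545 became 1300 with that filter, 408 higher and 892 lower, and 4110 without the fold limit. The filter tests fewer genes (9333), and dropping the limit admits smaller differences. With a pseudocount of 0.1 the NanogBiD count was 3905. Leaving out each library in turn gave 2569 to 2987 called genes, 2030 to 2720 for the interaction, 22.8 to 32.2 for the activation score difference and 13.9 to 17.8 for the silencing score difference, a lone library being taken to vary like the other groups. The median position of D8 ranged from 0.495 to 0.505 under the scaling and fold alternatives and from 0.481 to 0.506 over the 4 pairs of 1 D7 and 1 D10 library.

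Same-numbered replicates of D7 and D10 did not deviate together (r = 0.0532 with NanogBiD and 0.0155 with NanogWT, across genes), so the numbers were not taken as pairs. The replicate block gave 2661 called genes and 2625 for the interaction, with score differences of 27.5 and 15.9, and moved no call of a named gene.

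Of 121 named genes tested, 81 were called. No direction of a called gene turned under any alternative. A call was lost in at least 1 alternative by 13 genes and gained by 13. Without D10 replicate 2, Acta2 (-1.03, adjusted p = 0.0567), Bmp4 (-0.88), Gldc (0.99), Lgr5 (0.73), Pmaip1 (-0.81) and Ptprc (-1.0) were lost, and without D10 replicate 1, Ctgf (0.59), Sox17 (-0.88) and Sp5 (-1.5, adjusted p = 0.0913). Without D7 replicate 1, Ctgf (0.94), Lamb1 (-0.99) and Sp5 (-1.71, adjusted p = 0.0581) were lost, and without D7 replicate 2, Hk2 (0.93), Pmaip1 (-0.99), Ptprc (-0.88) and Sox17 (-0.81). Mt1 lost its call only in the fit to the compared groups alone (adjusted p = 0.0563) and Tdh only with a pseudocount of 0.1 (adjusted p = 0.0520). With a pseudocount of 0.1, Zscan4c (2.41, adjusted p = 0.000486) and Otx2 (1.57) gained a call. The cause of these changes was not tested. Depth limits the low genes: 474 of the 1341 risen genes were under 1 FPKM in both D7 libraries, where 1 read weighs most, and no detection floor can be given from FPKM.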

Other observations

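The libraries on either side of the interval show where some of these genes came from and went. With NanogBiD, Scrt2 was at 0.0729 and 0 FPKM at D5 and 48.5 and 55.03 at D12. Hes5 was at 0.403 and 0.117 FPKM at D5, 44.3 and 70.1 at D10 and 23.7 and 21.5 at D12, both D12 libraries being below both D10 libraries. Among naive genes, Sox2 was at 1.81 and 1.45 FPKM at D5 and 266 and 212 at D12, and Dppa5a at 0.290 and 0 and 1536 and 729. The hormone gene Iapp was at 131 and 129 FPKM at D5 and 0.219 and 0 at D12, and Clu at 818 and 796 and 32.2 and 43.4. Acta2, high in the single D8 library, was at 29.5 and 22.04 FPKM at D5 and 7.63 and 4.59 at D12. These are values of 2 libraries per day, given without a test.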
